A study of Mus musculus with 24 samples.

Results

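Loss of the let-7 microRNAs was measured in mouse alveolar type 2 (AT2) cells in 2 settings, and the comparison described here is the difference between the 2 knockout effects: knockout minus control in AT2 organoids, minus knockout minus control in AT2 cells taken fresh from the lung. All libraries labelled as AT2 cells or AT2 organoids entered it, 10 of the 24 samples of the series. They were 3 control and 3 knockout libraries of AT2 cells, and 2 control and 2 knockout libraries of organoids. Control mice carried Sftpc-CreER/+ and R26-tdT/+, a tamoxifen-dependent Cre under the AT2 gene Sftpc and a tdTomato reporter. Knockout mice carried both of these and let7afd-/-, in which 3 neighbouring let-7 genes are deleted. Mice of both genotypes received tamoxifen. AT2 cells were sorted 6 days after tamoxifen and pooled from 3 mice, and the labels do not make clear whether each library had a pool of its own. Organoids, also listed at 6 days after tamoxifen, were grown for 14 days in AMM medium from 2 mice of each genotype. The labels give neither the sort gates nor the ages of the mice. Fresh cells and organoids differed in culture, in time since tamoxifen, in pooling and in the table that holds their values, and these cannot be told apart. Levels are given as TPM, in which each library has the same sum. They keep no read numbers, so the depth is unknown. Effects are differences of log2(TPM + 1), which understate the change of genes with low TPM.

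AT2 cells make surfactant and divide to renew themselves and to form alveolar type 1 (AT1) cells, the thin cells of the gas exchange surface. A keratin 8 (Krt8) positive intermediate state lies between both cell types during repair. A let-7 microRNA pairs through its seed with sites in the 3′ UTR of a transcript and lowers the level of that transcript, and known let-7 targets promote growth and the cell cycle. The mature sequences of the 3 deleted members are shown because all of them share 1 seed, bases 2 to 8, given in capitals. They come from RefSeq (GRCm38.p6), all on the minus strand of chromosome 13, at chr13:48536078-48536099 for let-7d, chr13:48537889-48537910 for let-7f and chr13:48538239-48538260 for let-7a.
let-7d-5p: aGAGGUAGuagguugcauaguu
let-7f-5p: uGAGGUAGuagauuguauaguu
let-7a-5p: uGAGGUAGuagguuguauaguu
The genes of these 3 microRNAs were listed at 0 TPM in all 10 libraries. Mature microRNAs are not captured in poly(A) libraries, so the levels of these 3 genes give no check of the genotype labels.

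The libraries held 11814 to 12481 genes at 1 TPM or more. Both organoid controls differed from each other more than any other pair of the same group: the SD of their log2 differences over all genes tested was 0.492, against 0.193 for the organoid knockouts and 0.248 to 0.334 for pairs of AT2 libraries. Sftpc, the AT2 surfactant gene, was 28199 and 6935 TPM in organoid controls 1 and 2, 59558 and 51384 TPM in organoid knockouts, 141750 to 155065 TPM in AT2 controls and 85303 to 128668 TPM in AT2 knockouts. AT2 genes were thus present in all 10 libraries, and lowest in organoid control 2. In bulk samples fewer cells of a type and less RNA per cell cannot be told apart. The P values measure the spread between these libraries, which may be technical, and which for organoids rests on 2 libraries a group.

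Of 11351 genes tested in both tables, 365 had a more positive knockout effect in organoids than in fresh AT2 cells (3.22%) and 690 a more negative one (6.08%), at an adjusted p under 0.05. The counts of list members given below stand against these shares. Within the AT2 table, 802 of 12109 genes rose (6.62%) and 148 fell (1.22%). Within the organoid table, 27 of 12406 genes rose (0.218%) and 48 fell (0.387%). The fitted effects had opposite signs in 253 of the 365 (69.3%) and 576 of the 690 (83.5%), against 41.9% of all genes. Selection for a large difference favours opposite signs. The effect was larger in size in organoids for 331 of the 365 and for 563 of the 690. Over all genes the organoid effects were also wider (SD 0.62 against 0.31) and had larger SEs (median 0.154 against 0.114), which favours a larger size. Of the 365, 32 passed within AT2 cells, 18 within organoids and 318 in neither table alone, and of the 690, 142, 34 and 519. Across genes, which are not independent replicates, the effects in both settings were weakly related (Pearson's r = 0.11, Spearman's rho = 0.17, 11351 genes).

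**Figure D1:**
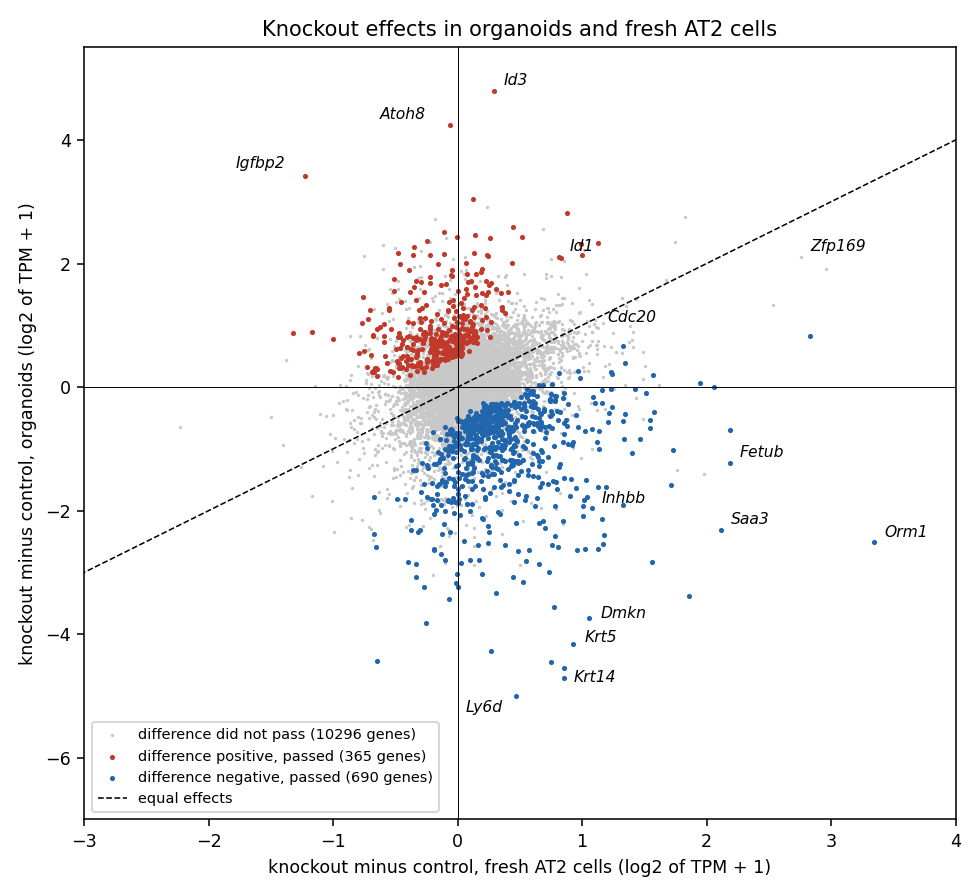
Knockout effect in fresh AT2 cells (x axis) against knockout effect in organoids (y axis), both as differences of log2(TPM + 1), for 11351 genes. Red and blue points are the 365 and 690 genes whose difference passed, the dashed line marks equal effects, and the organoid effects spread more widely than the AT2 effects (SD over genes 0.62 against 0.31).

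These calls are tied to the degrees of freedom and to the spread between organoid libraries. Without an organoid knockout that spread comes from the organoid controls alone, which differed more (SD 0.492 against 0.193). The calls in each direction then fell, and without an organoid control they rose. With the smaller of both tables' degrees of freedom, a stricter test added after the data were seen, 0 differences passed, with a lowest adjusted p of 0.150 and 2597 genes at an unadjusted p under 0.05 (3470 in the test reported). Leaving out organoid knockout 1 gave 3 and 35 calls, and leaving out organoid knockout 2 gave 4 and 27. With median-ratio scaling the split was 612 and 614, and with quantile normalization 594 and 524, so the excess of more negative effects depends on the scaling. No gene called in the reported test changed the sign of its difference under any alternative tried. Selection for a large difference favours this. Alternatives that change only the spread, the variance trend, the replicate block or the degrees of freedom leave the difference itself unchanged. Of 75 calls named here, 16 passed under all 22 alternative settings other than the smaller degrees of freedom: Cp, Cxcl17, Dmkn, Fetub, Id3, Igfbp2, Inhbb, Krt5, Krt14, Krt15, Krt17, Ly6d, Mgst2, Orm1, Retnlg and Rnf128. Of the 75, 56 were lost without organoid knockout 1 and 57 without organoid knockout 2. The counts within a table moved as well. Leaving out 1 library in turn gave 181 to 929 rises and 6 to 285 falls in AT2 cells, lowest without AT2 control 2. In organoids it gave 0 of either without an organoid knockout, and 3739 rises and 3228 falls without organoid control 1.

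Nearly all mitosis and DNA replication genes had positive fitted effects in both settings, though 0 of them passed within organoids. Cdc20, which activates the anaphase-promoting complex, was 74.2 to 79.6 TPM in AT2 controls and 167 to 176 TPM in AT2 knockouts, and 79.9 and 48.4 TPM in organoid controls and 112 and 131 TPM in organoid knockouts. The groups did not overlap in either table. Its effect was 1.12 ± 0.07 (SE) in AT2 cells and 0.95 ± 0.27 in organoids, a difference of −0.17 with a 95% confidence interval of −0.89 to 0.54. Mki67, a proliferation marker, had effects of 0.88 and 0.59, a difference of −0.29 (−0.87 to 0.28). Ezh2, the methyltransferase of Polycomb repressive complex 2, had effects of 0.66 and 0.67, a difference of 0.01 (−0.35 to 0.37). The intervals do not show that the effects are equal, and for Cdc20 and Mki67 they reach −0.89 and −0.87.

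Of 40 mitosis genes, 38 rose in AT2 cells and 39 had a positive effect in organoids, where 0 passed within the table. The difference passed in 1 of the 40, Cenpe, a kinesin of the centromere, whose effect was 0.97 in AT2 cells and 0.26 in organoids. Cenpe did not pass without AT2 control 3, AT2 knockout 3 or when either organoid knockout was left out. Of 40 DNA replication genes, all had a positive effect in both settings, 30 rose in AT2 cells, and the difference passed in 1, Rfc4, a subunit of the clamp loader (1.23 and 0.25, adjusted p = 0.0336). Rfc4 was 17.9 to 21.5 TPM in AT2 controls and 39.3 to 51.6 TPM in AT2 knockouts, against 48.6 and 35.6 TPM in organoid controls and 47.2 and 52.1 TPM in organoid knockouts. The median effects were 0.86 and 0.74 for mitosis and 0.59 and 0.75 for DNA replication, and the median difference changed sign under 2 and 1 alternatives. Of 22 G1 cyclins, CDKs and inhibitors, 0 differences passed. In these 3 lists the share of calls lies below that of all genes.

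Reported let-7 targets also had like medians, 0.35 in AT2 cells and 0.27 in organoids over 32 of 42 that passed the filter in both tables. Of the 32, 11 rose in AT2 cells, and of 36 tested in organoids 0 passed. The difference passed in 0 upwards and 1 downwards. Rrm2, the small subunit of ribonucleotide reductase, had effects of 0.99 and 1.21, and Gnptab, an enzyme of lysosomal enzyme sorting, 0.69 and 0.44. Hmga2, an oncofetal chromatin protein and let-7 target, was under 0.5 TPM in all AT2 libraries and was not tested there. In organoids it was 2.50 and 11.04 TPM in controls and 0.875 and 0.738 TPM in knockouts, with the knockouts lower. Igf2bp3 and Lin28b, 2 further oncofetal targets, were at most 0.306 and 0.0378 TPM in any library. Nras (0.61 and 0.45), Bach1 (−0.21 and −0.31) and Myc (0.48 and −0.56) did not pass for the difference.

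Genes with a let-7 site in the 3′ UTR were not called more often than genes without one. Sites were searched on the transcript strand in the longest GENCODE M21 3′ UTR of each gene as the 8mer CTACCTCA, the match to the seed followed by A. Of 389 tested genes that hold it, the difference passed in 10 upwards (2.57%) and 17 downwards (4.37%), against 3.54% and 6.11% of 9065 genes with neither this 8mer nor the 7mers CTACCTC and TACCTCA it contains. The median effects of the 389 were 0.11 in AT2 cells and 0.10 in organoids, against 0.08 and 0.09 without a site. Sites from 3 genes described above are shown with the 22 bases before them and the 8mer in capitals, because they show the match to the shared seed in genes whose levels are given. They lie in the 3′ UTR at chr12:24713340-24713369 (plus strand, Rrm2), chr10:88445841-88445870 (plus, Gnptab) and chr10:120364224-120364253 (minus, Hmga2), in GRCm38.
Rrm2: aggtgtctaaaaagctgtgtagCTACCTCA
Gnptab: aagatcttcatttgaaagtcacCTACCTCA
Hmga2: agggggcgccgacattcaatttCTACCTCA

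Of the 10 largest negative differences named, 5 were in keratins and another gene of basal cells, the stem cells of the airway epithelium. Krt5 (chr15:101707070-101712898), the defining basal keratin, was 721 and 1521 TPM in organoid controls and 54.9 and 59.8 TPM in organoid knockouts. In fresh AT2 cells it was 0.771 to 10.1 TPM in controls and 4.80 to 10.2 TPM in knockouts. The organoid groups lie far apart, and the AT2 groups overlap. The effect was −4.17 ± 0.38 in organoids and 0.93 ± 0.60 in AT2 cells, a difference of −5.10 ± 0.71 (adjusted p = 0.00199). Krt14 (chr11:100203162-100207548), its keratin partner, was 58.3 and 77.0 TPM in organoid controls and 1.69 and 1.51 TPM in organoid knockouts, with 3.08 to 10.4 and 7.09 to 13.4 TPM in the AT2 groups. Its difference was −5.56 ± 0.43 (adjusted p = 7.8e-05).

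Ly6d, a surface protein of basal and squamous cells, was 364 and 470 TPM in organoid controls and 12.1 and 11.6 TPM in organoid knockouts, the latter within the 7.54 to 22.6 TPM of the AT2 libraries. Its difference of −5.48 ± 0.32 had the smallest adjusted p of the negative differences (4.8e-06). Krt17 and Krt15 had differences of −5.20 and −3.56. Krt6a, a stress keratin, had a difference of −5.41 ± 1.10 (adjusted p = 0.0463), but its organoid controls were 19.1 and 170 TPM and the call was lost without AT2 control 2 or either organoid knockout. Reads of these keratins may be shared between close copies, depending on a counting step not given here. Of 9 basal genes tested in both tables, 7 passed downwards and 0 upwards, with a median difference of −5.10, against −0.003 over all genes. Of the 7, 5 passed without organoid knockout 1 and 5 without organoid knockout 2. A further 6 basal genes did not reach the filter in both tables. Among these, Trp63, the basal master transcription factor, was 34.8 and 93.6 TPM in organoid controls and 6.14 and 5.61 TPM in organoid knockouts, and 0.480 TPM or less in AT2 libraries. Organoid control 2, with the lowest Sftpc, held the higher level of Krt5, Krt14, Krt17, Krt15, Ly6d and Trp63. The part of this in other differences was not tested.

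**Figure D2:**
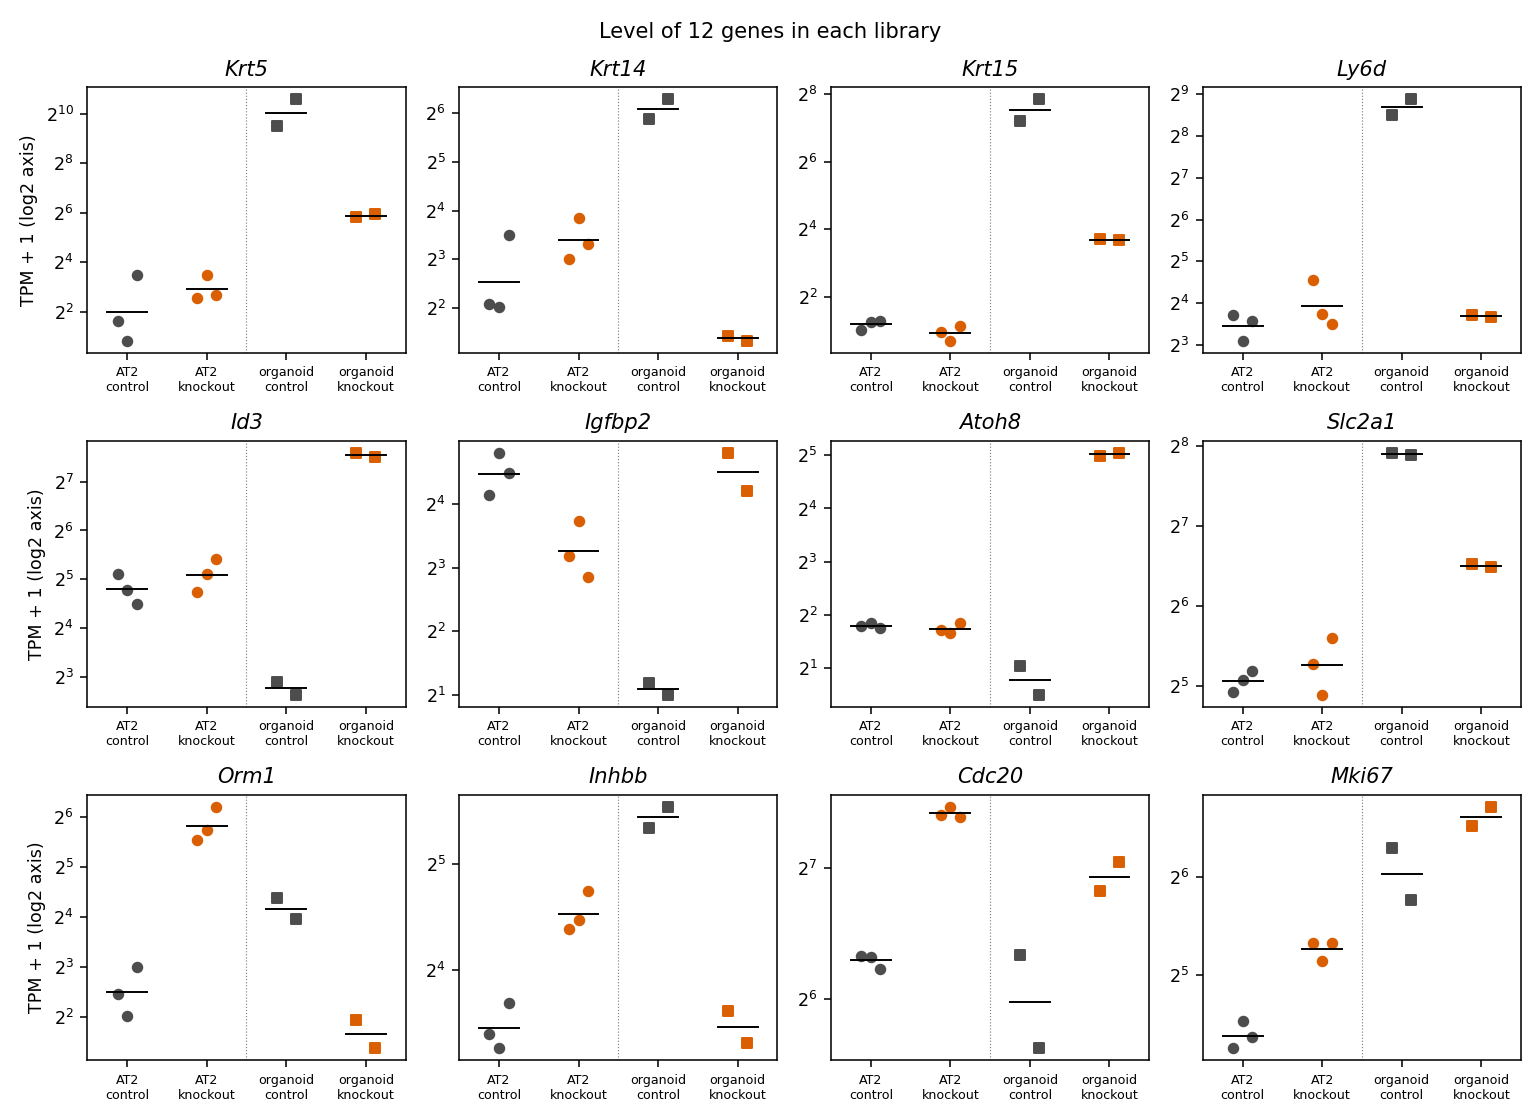
Level of 12 genes in each library, as TPM + 1 on a log2 axis, with circles for fresh AT2 cells, squares for organoids, grey for control, orange for knockout and a line at the mean of the log2 values. Krt5, Krt14, Krt15 and Ly6d are highest in organoid controls, Id3 and Atoh8 are highest in organoid knockouts, and Cdc20 and Mki67 are higher in knockouts in both settings.

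Genes of 3 inhibitors of DNA binding (Id proteins), which BMP signals induce in many cells, passed upwards, and Id3 was among the 10 largest positive differences. Id3 (chr4:136143497-136145755) was 6.36 and 5.19 TPM in organoid controls and 192 and 181 TPM in organoid knockouts. In AT2 cells it was 21.4 to 33.5 TPM in controls and 25.5 to 41.7 TPM in knockouts. The organoid groups stand apart in level, below and above all AT2 libraries, whereas the AT2 groups overlap. The difference was 4.50 ± 0.24 (adjusted p = 2.5e-06), the smallest adjusted p of all genes tested. Id1 was 80.2 and 96.9 TPM in organoid controls and 364 and 403 TPM in organoid knockouts, and rose in AT2 cells too, from 24.6 to 38.8 TPM to 43.4 to 66.3 TPM. Its effects were 0.82 in AT2 cells and 2.11 in organoids, a difference of 1.29 ± 0.24 (adjusted p = 0.00968). Id2 had effects of 0.41 and 1.54 (adjusted p = 0.00304).

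Of 31 genes of TGF-beta, activin and BMP signalling, 5 passed upwards and 4 downwards, against 3.22% and 6.08% of all genes. Their median difference was −0.19. Inhbb, the activin B subunit, was 8.64 to 11.97 TPM in AT2 controls and 19.9 to 25.7 TPM in AT2 knockouts, but 39.4 and 45.3 TPM in organoid controls and 11.3 and 8.99 TPM in organoid knockouts. It rose in AT2 cells and fell in organoids, and neither table's groups overlap (effects 1.08 and −1.97, difference −3.04 ± 0.21, adjusted p = 6.8e-05). Acvr1b, an activin receptor, had effects of 0.68 and −0.64. Tgfbi, a matrix protein induced by TGF-beta, had a difference of −2.97. Without organoid knockout 1 or organoid knockout 2, 1 upward and 2 downward calls of the list passed in each case.

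Igfbp2 (chr1:72824503-72852474), an insulin-like growth factor binding protein and AT1 marker, had the largest positive difference of the genes named. It was 1.27 and 1.00 TPM in organoid controls and 26.9 and 17.6 TPM in organoid knockouts, and went the other way in AT2 cells, from 16.7 to 27.0 TPM in controls to 6.27 to 12.3 TPM in knockouts. It fell in AT2 cells and rose in organoids (effects −1.23 and 3.42, difference 4.64 ± 0.34, adjusted p = 6.8e-05). Igfbp7 and Igfbp6 had differences of 2.06 and 2.20. In the list of EGF, FGF and IGF genes, 4 of 27 passed upwards and 2 downwards, against 3.22% and 6.08% of all genes. The downward count, which includes the receptor gene Erbb3 (−0.67), is near the share of all genes. Of 19 WNT genes, 3 passed upwards and 0 downwards: the ligand Wnt7a (1.95 and 1.47 TPM in organoid controls, 14.4 and 12.6 TPM in organoid knockouts, difference 1.91), the transcriptional repressor Tcf7l1 (1.59) and Znrf3, a ligase that removes WNT receptors (0.87). The 3 calls were lost when either organoid knockout was left out.

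Among other large positive differences, Atoh8, a transcription factor, was 1.06 and 0.422 TPM in organoid controls and 30.7 and 31.9 TPM in organoid knockouts, while the 6 AT2 libraries lay between 2.15 and 2.61 TPM (difference 4.30 ± 0.26, adjusted p = 0.000299). Tesc, a calcium-binding protein (2.92), the sorting nexin gene Snx22 (2.66), the ATP-gated channel gene P2rx2 (2.62), the guidance ligand gene Sema3a (2.62), the transcription factor gene Scx (2.62), the anchoring protein gene Akap2 (2.49) and the amino acid transporter gene Slc38a4 (2.45) followed. In all 7 the organoid controls and knockouts did not overlap, which selection for a large difference favours. With 2 libraries a group such groups often separate by chance alone, and the share over all genes is not given here. The effect of these 7 in AT2 cells was between −0.48 and 0.12.

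AT1 markers had a median effect of −0.15 in AT2 cells and 0.83 in organoids. Of 25 tested, 9 passed upwards and 1 downwards. Hopx, a transcriptional cofactor of AT1 cells, was 80.6 to 127 TPM in AT2 controls and 54.2 to 70.6 TPM in AT2 knockouts, and 130 and 137 TPM in organoid controls and 296 and 191 TPM in organoid knockouts. The knockouts were the lower group in AT2 cells and the higher one in organoids (effects −0.68 and 0.83, difference 1.51 ± 0.29, adjusted p = 0.0195). Sema3e, a guidance ligand, had effects of −0.39 and 1.89, and Lmo7, a junction protein, −0.47 and 0.87. The downward call was Vegfa, which the list of hypoxia genes also holds. Ager, the receptor that defines AT1 cells, was 548 and 202 TPM in organoid controls and 1152 and 789 TPM in organoid knockouts and did not pass (difference 1.66, 95% confidence interval 0.25 to 3.08, adjusted p = 0.1199). Without organoid knockout 1 the list had 1 upward and 1 downward call, and without organoid knockout 2 it had 2 and 0.

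AT2 identity genes had a similar contrast of medians, −0.16 in AT2 cells and 0.83 in organoids, but of 29 tested only Etv5, a transcription factor of AT2 cells, passed (516, 526 and 464 TPM in AT2 controls, 391 to 505 TPM in AT2 knockouts, 177 and 113 TPM in organoid controls, 312 and 284 TPM in organoid knockouts; difference 1.29, adjusted p = 0.0360). Etv5 did not pass when either organoid knockout was left out. Sftpc had a difference of 2.45 ± 1.01 (adjusted p = 0.134). Over the settings tried, the median difference of this list lay between 0.253 and 1.499, the widest range among lists of the alveolar epithelium.

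Genes of the Krt8-positive intermediate state had a median effect of 0.32 in AT2 cells and 0.007 in organoids, with 1 of 35 differences upwards and 8 downwards. Krt8 itself did not pass (effects 0.30 and 0.01). Fn1, fibronectin, was 2.47 to 6.66 TPM in AT2 controls and 8.15 to 11.8 TPM in AT2 knockouts, and 130 and 210 TPM in organoid controls and 52.96 and 53.7 TPM in organoid knockouts (difference −2.80 ± 0.37, adjusted p = 0.00174). Hif1a, the oxygen-regulated transcription factor, had effects of 0.40 and −0.48, and Itgav, an integrin subunit, 0.21 and −0.67. The upward call was Spp1, osteopontin, which rose in both tables (1.13 and 2.34). Its difference (1.21, adjusted p = 0.0400) did not pass when any AT2 library but knockout 1, or either organoid knockout, was left out, nor with 1 spread shared by both tables. Without organoid knockout 1 the list had 0 upward calls and 1 downward call, and without organoid knockout 2 it had 0 in each direction. Of 14 genes of epithelial to mesenchymal transition, 4 passed downwards, among them Fn1, Tgfbi and the hyaluronan receptor gene Cd44 (−1.91). Of 25 collagen and matrix genes, 2 passed upwards, among them Sparc, a matrix-binding protein (1.89), and 5 downwards, among them Fn1, the laminin gene Lama5 (−1.41) and Col16a1 (−1.77).

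Genes of glycolysis and the hypoxia response differed in 1 direction. Of 28 tested, 15 passed downwards and 0 upwards, all 28 differences were negative (Ldha turned positive with quantile normalization and Pfkl without organoid control 1), and the median effect was 0.17 in AT2 cells and −0.94 in organoids. Slc2a1, the glucose transporter GLUT1, was 240 and 235 TPM in organoid controls and 91.3 and 88.6 TPM in organoid knockouts, and 29.5 to 35.5 and 28.8 to 47.6 TPM in the AT2 groups. The organoid groups stand apart and the AT2 groups overlap (difference −1.58 ± 0.19, adjusted p = 0.000958). Hk1, a hexokinase, rose in AT2 cells (0.46) and had an effect of −0.93 in organoids, with 131 and 133 TPM in organoid controls and 67.0 and 70.0 TPM in organoid knockouts. Gpi1, the next enzyme of the pathway, had effects of 0.16 and −0.88. Vegfa, the vascular growth factor that hypoxia induces, was 296 and 366 TPM in organoid controls and 118 and 76.5 TPM in organoid knockouts (difference −1.999 ± 0.31). Ndrg1, a stress gene that hypoxia induces, had the largest difference of the list, −4.54 ± 0.72. Its organoid libraries were 162 and 395 TPM in controls and 20.2 and 7.11 TPM in knockouts.

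Eno1 and Gapdh, enzymes of the pathway, passed with another pattern: they rose in AT2 cells (0.85 and 0.78) and had small effects in organoids (−0.18 and −0.22). Ldha, lactate dehydrogenase, did not pass (0.25 and 0.14). With median-ratio scaling 13 of the list passed downwards and with quantile normalization 12. Without organoid knockout 1 there were 2 calls and without organoid knockout 2 there were 0, while the median difference lay between −1.15 and −0.88 over all settings. Of 30 targets of BACH1 and NRF2, which control the oxidative stress response, 4 passed downwards and 1 upwards, against 6.08% and 3.22% of all genes. Slc7a11, the cystine importer, was 0.240 to 0.401 TPM in AT2 controls and 1.71 to 5.70 TPM in AT2 knockouts, but 101 and 58.6 TPM in organoid controls and 32.5 and 42.8 TPM in organoid knockouts (effects 1.73 and −1.03, adjusted p = 0.00512). Gclm, a subunit of the enzyme that starts glutathione synthesis, rose in AT2 cells (0.95) and had an effect of −0.46 in organoids. Abcc1 and Gpx2 were the other downward calls (differences −1.30 and −2.29), and all 4 calls were lost when either organoid knockout was left out.

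**Figure D3:**
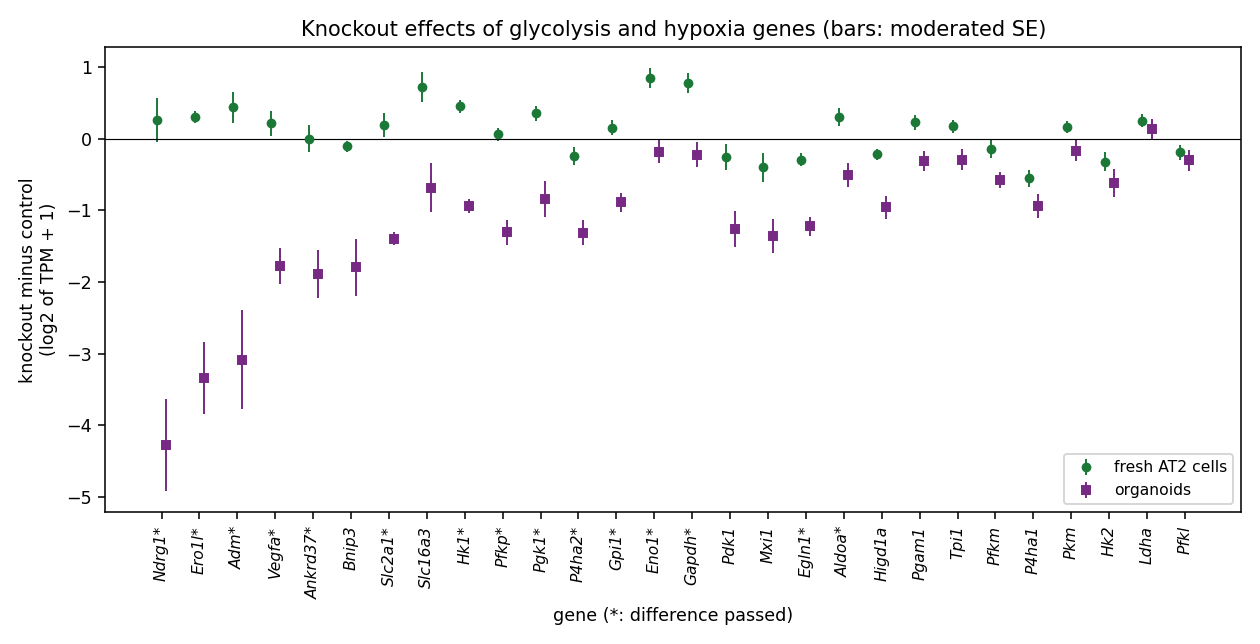
Knockout effects on log2(TPM + 1) of the 28 tested glycolysis and hypoxia genes in fresh AT2 cells (green circles) and organoids (purple squares), with moderated SE as bars and an asterisk on the 15 genes whose difference passed. All purple points lie below their green partners, from Ndrg1 with the widest gap on the left to Pfkl on the right.

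Chemokines and acute phase genes had a median effect of 0.57 in AT2 cells and −0.86 in organoids, and 10 of 23 differences passed downwards, 0 upwards. Orm1 (chr4:63344560-63348163), an acute phase protein, had the largest negative difference of all named genes. It was 3.03 to 7.02 TPM in AT2 controls and 45.7 to 73.2 TPM in AT2 knockouts, but 19.8 and 14.5 TPM in organoid controls and 2.81 and 1.58 TPM in organoid knockouts. It rose in AT2 cells (3.35), and in organoids its effect was −2.52 with groups that do not overlap (difference −5.86 ± 0.37, adjusted p = 3.0e-05). Orm1 has the close copy Orm2, and reads may be shared between them. Saa3, serum amyloid A3, rose in AT2 cells from 2.39 to 4.47 TPM to 14.0 to 21.2 TPM, and its organoid controls of 1610 and 290 TPM differed widely (difference −4.43 ± 0.87, adjusted p = 0.0463; lost without AT2 control 2, AT2 knockout 3 or either organoid knockout).

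Cp, ceruloplasmin, was 519 and 507 TPM in organoid controls and 74.3 and 89.4 TPM in organoid knockouts, with 3.45 to 10.5 TPM over the AT2 libraries (difference −3.21 ± 0.32). Cxcl17, an epithelial chemokine, had effects of 1.00 and −1.92, and Hp, haptoglobin, 0.06 and −1.43. Leaving out either organoid knockout left 3 calls in the list. Retnla, a secreted resistin-like protein, had a difference of −5.25 ± 1.18, but ranged from 242 to 2059 TPM in AT2 controls and from 422 to 10356 TPM in AT2 knockouts, and lost its call without any of 4 AT2 libraries (controls 1 and 2, knockouts 2 and 3) or either organoid knockout.

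Interferon-stimulated genes had a median effect of 0.29 in AT2 cells and −0.39 in organoids. Of 28 differences 8 passed downwards and 0 upwards, against 6.08% and 3.22% of all genes. Irf7, a transcription factor that amplifies interferon responses, was 4.17 to 4.90 TPM in AT2 controls and 5.86 to 10.3 TPM in AT2 knockouts, but 7.12 and 8.24 TPM in organoid controls and 2.90 and 3.40 TPM in organoid knockouts (difference −1.67 ± 0.25, adjusted p = 0.00277). Neither table's groups overlap, and they lie in opposite order. Zbp1, a nucleic acid sensor, had a difference of −2.32, Rtp4 −1.59 and Dhx58 −1.52. Antigen presentation genes had 13 negative differences of 13, although 3 members passed upwards without organoid control 1. Of the 13, H2-Ab1, an MHC class II chain (170 and 95.1 TPM in organoid controls, 21.4 and 13.3 TPM in organoid knockouts, difference −2.44), and Tap1, a peptide transporter (−1.27), passed. Lysosomal genes passed downwards in 8 of 36, against 6.08% of all genes. Lipa, the acid lipase, rose in AT2 cells from 1.83 to 2.41 TPM to 5.71 to 9.38 TPM, and was 13.7 and 17.1 TPM in organoid controls and 10.9 and 9.64 TPM in organoid knockouts (difference −2.08 ± 0.25, adjusted p = 0.000844). Ctsd, a cathepsin, had effects of 0.52 and −0.61, and Cd68, which macrophages also express, 1.04 and −1.78. When either organoid knockout was left out, 0 calls were left in these 3 lists.

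**Figure D4:**
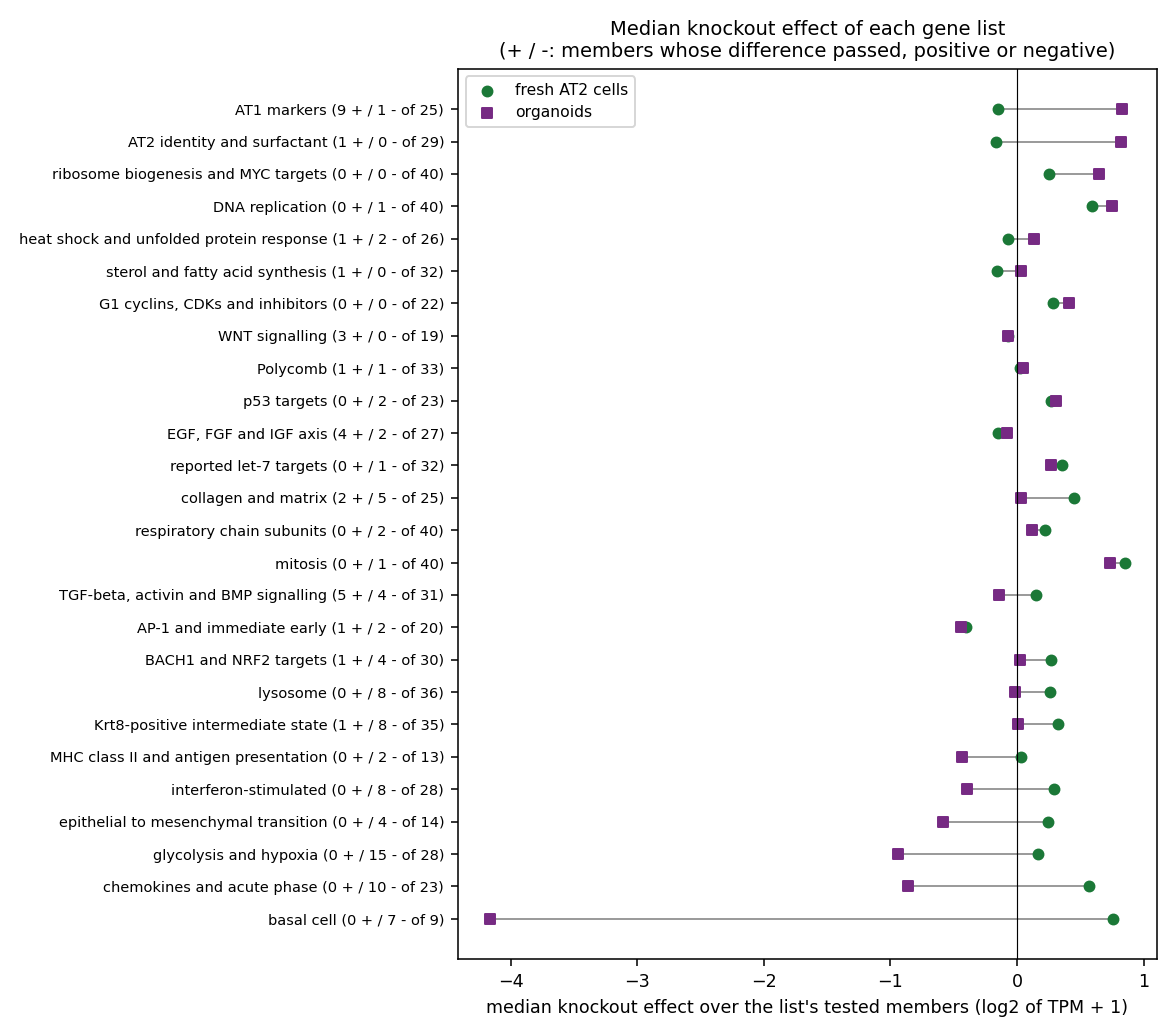
Median knockout effect, on log2(TPM + 1), of each of 26 gene lists in fresh AT2 cells (green circles) and organoids (purple squares), ordered by the median difference, with the numbers of members that passed upwards and downwards beside each name. AT1 and AT2 genes lie at the top with positive medians in organoids, basal cell, acute phase and glycolysis genes at the bottom, and mitosis and DNA replication genes are positive in both settings.

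In the other lists 0 to 3 members passed, against 3.22% upwards and 6.08% downwards over all genes. Of 20 AP-1 and immediate early genes 1 passed upwards and 2 downwards, of 26 heat shock and unfolded protein response genes 1 and 2 (the latter including Xbp1, −1.21), of 32 sterol and fatty acid synthesis genes 1 and 0, and of 33 Polycomb genes 1 and 1. Of 40 respiratory chain subunits 0 passed upwards and 2 downwards, and of 23 p53 targets 0 and 2. Of 40 ribosome biogenesis genes 0 passed in either direction, at a median effect of 0.25 in AT2 cells and 0.64 in organoids.

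Markers of other cells differed in level between controls and knockouts in both tables, but few of those described here passed within organoids. Of the alveolar macrophage, pan-leukocyte and ciliated cell genes, 0 passed there, and 1 club cell gene and 1 neutrophil gene fell. In AT2 cells 6 of 13 tested alveolar macrophage genes rose and 0 fell, against 6.62% and 1.22% of all genes. The list's 15 genes summed to 1267 to 1685 TPM in AT2 controls and 1324 to 1397 TPM in AT2 knockouts, which overlap. They summed to 452 to 1319 TPM in organoid controls and 902 to 909 TPM in organoid knockouts. Marco, a macrophage scavenger receptor, was 0.248 to 0.573 TPM in AT2 controls and 5.71 to 16.4 TPM in AT2 knockouts, and 0.103 and 0.174 TPM in organoid controls and 4.46 and 2.37 TPM in organoid knockouts. It was higher in knockouts in both settings, and its difference did not pass (−1.05, adjusted p = 0.133). Ctsk, a cathepsin in the same list, had effects of 2.83 and 0.82 (difference −2.02, adjusted p = 0.0216). Of 15 alveolar macrophage genes 5 were tested in both tables, and 8 were under 1 TPM in all organoid libraries. The 10 pan-leukocyte genes summed to 177 to 246 TPM in AT2 controls, 265 to 337 TPM in AT2 knockouts, 71.4 to 190 TPM in organoid controls and 182 to 187 TPM in organoid knockouts, and 8 of them were under 1 TPM in all organoid libraries. The 6 erythrocyte genes summed to 83.05 to 162 TPM in AT2 controls and 286 to 483 TPM in AT2 knockouts, and to at most 0.168 TPM in organoids.

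The 10 ciliated cell genes summed to 139 to 191 and 87.9 to 157 TPM in the AT2 groups, to 54.6 to 103 TPM in organoid controls and to 12.4 to 19.4 TPM in organoid knockouts. Foxj1, the master transcription factor of ciliated cells, was 13.5 and 27.7 TPM in organoid controls and 3.84 and 2.30 TPM in organoid knockouts (difference −2.29 ± 0.48, adjusted p = 0.0275). The 10 club cell genes summed to 19890 to 24407 TPM in organoid controls and 8858 to 9593 TPM in organoid knockouts, against 9512 to 19938 and 5749 to 9889 TPM in the AT2 groups. The neutrophil gene Retnlg was 6.38 and 6.74 TPM in organoid controls and 0.144 and 0.299 TPM in organoid knockouts (difference −3.59), while the other 7 neutrophil genes were under 1 TPM in all organoid libraries. The summed levels of basal, club and ciliated genes were thus all higher in both organoid controls than in both organoid knockouts. The part of these cells in the differences of glycolysis, acute phase, interferon and matrix genes was not tested.

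Only 9 genes passed in both tables, and 6 of them in opposite directions: Igfbp2, Inhbb, Dmkn, Fetub, Mgst2 and Rnf128. Dmkn, a secreted protein of stratified epithelia, was 41.1 to 70.5 TPM in AT2 controls and 82.2 to 128 TPM in AT2 knockouts, but 256 and 131 TPM in organoid controls and 13.7 and 11.96 TPM in organoid knockouts (difference −4.79 ± 0.41, adjusted p = 0.000882). Fetub, a protease inhibitor, was 3.20 to 7.45 TPM in AT2 controls and 19.3 to 29.2 TPM in AT2 knockouts, and 85.5 and 89.7 TPM in organoid controls and 37.9 and 35.5 TPM in organoid knockouts. Mgst2, a microsomal glutathione transferase, had effects of 0.85 and −1.48, and Rnf128, a ubiquitin ligase, 0.79 and −1.65. In these genes the knockouts lay above the controls in every AT2 library and below them in every organoid library, and for Igfbp2 the reverse. Passing in both tables favours such an order.

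Id1, Spp1 and Zfp169 rose in both tables. Zfp169, a zinc finger gene, was 0.553 to 0.616 TPM in AT2 controls and 7.03 to 13.0 TPM in AT2 knockouts, and 5.65 and 6.63 TPM in organoid controls and 31.0 and 28.3 TPM in organoid knockouts. Its difference of −0.65 (95% confidence interval −1.18 to −0.12) did not pass (adjusted p = 0.101). Of the 743 genes that rose in AT2 cells and were tested in organoids, 541 had a positive effect there (72.8%, against 57.4% of all genes), with a median of 0.37. Of 127 that fell in AT2 cells, 46.5% had a positive effect in organoids. Of the 36 genes that fell in organoids and were tested in AT2 cells, 25 had a positive effect in AT2 cells (69.4%, against 64.5% of all genes) and 5 passed as rises.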

How the data were processed

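Non-stranded poly(A) RNA libraries (TruSeq, per the labels' protocols) were quantified by the authors as TPM, in 1 deposited table for each kind of sample. The genome was GRCm38 per the submitters' processing notes, and no source used here names the aligner, the quantifier or the gene models. Antisense overlaps cannot be told apart without strand.

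Of 24972 symbols, 2 repeats were dropped and 24 written as dates were kept, and 24467 matched GENCODE M21. On log2(TPM + 1), limma 3.58.1 (R 4.3.3) was run separately on each table with genotype as the only term and a variance trend. A gene was tested at 1 TPM or more in at least 3 AT2 and at least 2 organoid libraries. The difference of both moderated effects was tested two-sided with their SEs added in squares and Satterthwaite degrees of freedom, Benjamini-Hochberg adjusted over 11351 genes, and passed under 0.05. On data simulated with 1 spread for both groups of a table, 14.6% of this test's calls were false at the threshold of 0.05. For the test with the smaller degrees of freedom, added after the data were seen, 2.24% were false. The organoid controls differed more from each other than the organoid knockouts did, so these rates need not hold here.

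Members and lists were chosen with earlier results of these data known, so no list is independent support. Named were the 10 largest differences in each direction with a mean of at least 5 TPM in a group, passing over predicted genes, up to 4 members a list by smallest p, and 13 fixed genes. Id1, Spp1, Zfp169, Fetub, Mgst2, Rnf128, Trp63, Ager, Rrm2, Eno1, Gapdh, Ldha and Pfkl were chosen after their values were seen. Alternatives were other pseudocounts, filters, scalings, spreads, weights, a replicate block and leaving out each library in turn. Whole lungs were not analysed here, and some members of the lists are not reported here.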

Additional observations from a re-analysis of the deposited data

Results flagged for a closer look

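The test of the difference between settings gave 365 genes with a more positive knockout effect in organoids and 690 with a more negative one, and 0 of either with the smaller degrees of freedom. The genes below were chosen by the size of this difference, or because they moved in opposite directions in both tables, so their differences describe that choice.

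The knockout effect was more positive in organoids, in log2 units, by 4.64 for Igfbp2, 4.50 for Id3 and 4.30 for Atoh8. The next were Tesc with 2.92, Snx22 with 2.66, P2rx2, Sema3a and Scx with 2.62 each, Akap2 with 2.49 and Slc38a4 with 2.45. Igfbp2 fell in AT2 cells and rose in organoids.

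The difference was −5.86 for Orm1, −5.56 for Krt14, −5.48 for Ly6d, −5.41 for Krt6a, −5.25 for Retnla, −5.20 for Krt17 and −5.10 for Krt5. It was −4.79 for Dmkn, −4.54 for Ndrg1 and −4.43 for Saa3. Genes that rose in AT2 cells and fell in organoids were Dmkn, Fetub (−3.42), Inhbb (−3.04), Rnf128 (−2.44) and Mgst2 (−2.33).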

How the results depend on the processing

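The counts of differences, 365 upwards and 690 downwards, became 612 and 614 with median-ratio scaling, 594 and 524 with quantile normalization, 661 and 943 with 1 spread shared by both tables, and 0 and 0 with the smaller degrees of freedom. With the replicate block they were 211 and 519, and the organoid table then had 122 rises and 277 falls. The correlations of same-numbered deviations from the group mean were −0.132, 0.064 and 0.181 in AT2 cells and −0.0585 in organoids. With 2 or 3 libraries a group, they cannot decide whether the numbers pair libraries. Leaving out 1 library in turn gave 3 to 2510 upward and 27 to 2367 downward differences, 181 to 929 rises and 6 to 285 falls in AT2 cells, and 0 to 3739 rises and 0 to 3228 falls in organoids. Leaving out an organoid library leaves 1 sample in its group, assumed to vary like the others: the spread then comes from the organoid knockouts alone (highest counts) or the organoid controls alone (lowest counts).

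In AT2 cells (802 rises, 148 falls) there were 340 and 30 without a filter, 419 rises with median-ratio scaling, 399 with quantile normalization and 86 falls without the variance trend. In organoids (27 rises, 48 falls) there were 0 and 0 without a filter, 67 and 116 without the trend, 232 and 427 with library weights, 29 falls at a pseudocount of 5 and 25 with quantile normalization. No difference that passed changed sign, which selection for a large difference favours. Among those that did not pass, the differences over all leave-outs ran from −0.23 to 0.022 for Bach1, −0.53 to 0.18 for Cdc20, −0.72 to 0.22 for Gnptab, −0.24 to 0.023 for Pfkl, −0.066 to 0.52 for Rrm2 and −0.068 to 0.12 for Ezh2. Bach1, Cdc20, Gnptab and Pfkl turned positive without organoid control 1, Rrm2 turned negative without organoid control 2, and Ezh2 turned negative in 5 leave-outs. Ldha (0.11) turned positive with quantile normalization and Zfp169 (0.24) at a pseudocount of 5. The causes were not tested. The TPM keep no depth, so what depth limits is unknown.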
